A study of Mus musculus with 8 samples.

Results

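Immediate early genes are transcribed within minutes of a stimulus without new protein synthesis, and *Fos*, *Fosb*, *Jun*, *Junb*, *Egr1*, *Atf3*, *Ier2*, *Nr4a1*, *Dusp1*, and *Klf6* were chosen by symbol as a set of 10 that is often read as a check of how tissue was handled before its RNA was fixed. All 10 were found among the 16994 genes of the count table and all 10 passed the filter on low counts, which asked for a mean CPM of 1 or more, CPM being the count relative to the size of its library. RNA from hearts of male mice had been sequenced in 8 libraries, with 1 for each combination of genotype and region. WT mice were compared with mice lacking TIGAR, a phosphatase that limits glycolysis, in the whole body (TKO). The 3 zones (infarct, border, and remote) came from hearts with permanent ligation of the left anterior descending coronary artery. Ligation, done at 16 weeks of age, causes myocardial infarction (MI). Collection of the zones is taken here to be 4 weeks later, the time of the authors' last echocardiography. The left ventricle libraries carry no zone in their labels, and the sources used here do not state whether those mice were sham operated or how old they were. RNA of 3 mice per genotype was pooled for the infarct zone, so an infarct zone library is a mean over pooled mice, and the number of mice is not given in the sources used here for the other regions.

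In these genes, signaling through MAP kinases and calcium reaches preformed transcription factors such as SRF and CREB, which switch on transcription within minutes. The proteins of the FOS and JUN families pair to form AP-1, which, with EGR1, ATF3, NR4A1, and KLF6, sets the next wave of transcription, whereas DUSP1 removes phosphate from MAP kinases and so limits the response. In the heart they are known to respond to stretch, ischemia, catecholamines, and the cutting of tissue.

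The promoters of the 4 members whose left ventricle levels lay below every zone library (*Fos*, *Jun*, *Nr4a1*, and *Klf6*) are shown because they differ in the short motifs through which CREB and AP-1 proteins bind DNA. Each run holds 250 bases before and 50 bases after the RefSeq gene start on GRCm38.p6, read 5′ to 3′ along the gene. Capitals mark TGACG on either strand, the core of the cAMP response element (CRE) bound by CREB and ATF proteins, in *Fos* and *Nr4a1*, and TGACATCA, the variant AP-1 site known from the *Jun* promoter, in *Jun* and *Klf6*.
Fos (chr12:85473640-85473939, plus strand): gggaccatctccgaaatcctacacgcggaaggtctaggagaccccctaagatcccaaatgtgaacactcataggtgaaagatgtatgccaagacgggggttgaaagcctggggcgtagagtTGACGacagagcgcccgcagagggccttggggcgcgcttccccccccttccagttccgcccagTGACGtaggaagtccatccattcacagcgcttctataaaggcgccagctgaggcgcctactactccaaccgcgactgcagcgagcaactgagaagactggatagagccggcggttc
Jun (chr4:95052173-95052472, minus strand): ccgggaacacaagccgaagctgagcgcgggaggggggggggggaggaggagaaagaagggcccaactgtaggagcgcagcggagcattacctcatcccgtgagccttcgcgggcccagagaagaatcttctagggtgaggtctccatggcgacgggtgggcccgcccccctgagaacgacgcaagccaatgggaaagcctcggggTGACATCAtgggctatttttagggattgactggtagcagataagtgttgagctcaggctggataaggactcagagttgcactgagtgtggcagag
Nr4a1 (chr15:101266596-101266895, plus strand): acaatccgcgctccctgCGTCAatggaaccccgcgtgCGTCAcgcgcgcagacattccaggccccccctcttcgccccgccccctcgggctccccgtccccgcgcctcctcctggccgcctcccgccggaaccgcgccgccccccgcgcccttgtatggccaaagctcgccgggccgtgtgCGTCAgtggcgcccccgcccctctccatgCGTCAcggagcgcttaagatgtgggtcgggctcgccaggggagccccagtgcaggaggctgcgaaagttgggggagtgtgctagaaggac
Klf6 (chr13:5861239-5861538, plus strand): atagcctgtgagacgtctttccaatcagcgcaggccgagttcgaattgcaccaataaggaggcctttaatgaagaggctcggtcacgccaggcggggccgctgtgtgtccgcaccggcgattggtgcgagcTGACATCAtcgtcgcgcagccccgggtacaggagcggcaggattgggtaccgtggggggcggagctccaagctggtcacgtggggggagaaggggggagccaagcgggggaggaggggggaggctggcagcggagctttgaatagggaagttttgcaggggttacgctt

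The RefSeq promoter table used here gave 8 of the 10 members, and *Egr1* and *Ier2* were not matched. TGACG or its reverse complement occurred in 6 of these 8 promoters (*Fos*, *Fosb*, *Junb*, *Atf3*, *Nr4a1*, and *Dusp1*), beside 20.8% of all 32851 promoters of the same length. The *Nr4a1* promoter held 4 copies and the *Fos* promoter 2, the nearest starting 66 bases upstream of the *Fos* start and 40 bases upstream of the *Nr4a1* start. The full palindrome TGACGTCA, which contains overlapping copies of TGACG on both strands, occurred in *Dusp1* alone among the 8, beginning 143 bases upstream of the start, and in 1.79% of all promoters. TGACATCA occurred in *Jun* (45 bases upstream) and *Klf6* (119 bases upstream), and in 3.62% of all promoters. GCGNGGGCG, the letters of an EGR site, occurred in *Fosb* and *Nr4a1* and in 5.55% of all promoters. TGANTCA (7.81% of all promoters) and the CArG box (1.63%) were not found in these windows of the 8 members. These matches are letters in a window and were not measured as binding.

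Total estimated counts per library lay between 27429240 and 33799249, and CPM values here are scaled by TMM, edgeR's correction for libraries in which a few abundant genes take a changing share of the counts. On that scale a count of 3 corresponded to between 0.0709 and 0.116 CPM. The TMM factors were 1.54 in the WT and 1.26 in the TKO infarct zone and between 0.866 and 0.956 in the other libraries. *Tigar*, which checks the genotype labels, had between 1066 and 2215 counts in the WT and between 51 and 87 in the TKO libraries. Cardiomyocyte markers were present in every library, as a summed level over 12 genes between 72260 and 74830 CPM in the left ventricle and between 16830 and 34050 CPM in the infarct zone.

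Per kilobase of exon, averaged over the 8 libraries, *Dusp1* was the most abundant member with 26.4 CPM per kilobase, followed by *Jun* (22.2), *Klf6* (17.6), *Junb* (13.2), *Ier2* (11.6), *Nr4a1* (5.23), *Atf3* (4.93), *Egr1* (4.32), *Fos* (2.23), and *Fosb* (0.164). The ranges over libraries overlapped between neighbors in this order, except between *Ier2* and *Nr4a1* and between *Fos* and *Fosb*. *Fosb* was close to the filter, which used total counts, with a mean of 1.28 CPM on that scale and 1.02 CPM with TMM. Both means rested on the infarct zone libraries.

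The left ventricle pair was then set against the zones. The 9 members other than *Fosb* each had a lower fitted level in the left ventricle than in the zones, with a median log2 difference of -0.53 beside -0.01 over all 12999 genes tested. *Fosb* (-2.47) is left out of that count because it passed the filter only through the infarct zone libraries. The lowest values of the 9 belonged to *Fos* (-1.62) and *Nr4a1* (-1.44), and the values nearest to 0 to *Dusp1* (-0.20), *Atf3* (-0.21), and *Ier2* (-0.23). None of the 10 passed the edgeR quasi-likelihood test after Benjamini-Hochberg adjustment, where the background was 0.0% of genes. At an unadjusted p below 0.05 the same test gave 1097 of the 12999 genes, among them 3 of the 10 members (*Jun*, *Nr4a1*, and *Fos*). With DESeq2 151 genes passed (1.16%), and 2 of them were members, *Jun* (log2 difference -0.52, adjusted p = 8.89e-07 by DESeq2) and *Nr4a1* (-1.43, adjusted p = 0.0111 by DESeq2), both lower in the left ventricle. Over all alternatives their adjusted p ranged from 8.89e-07 to 0.888 for *Jun* and from 0.0111 to 0.888 for *Nr4a1*. In this fit the zones stand in for replicates, so its p-values measure the spread between these libraries and not between mice.

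**Figure D1:**
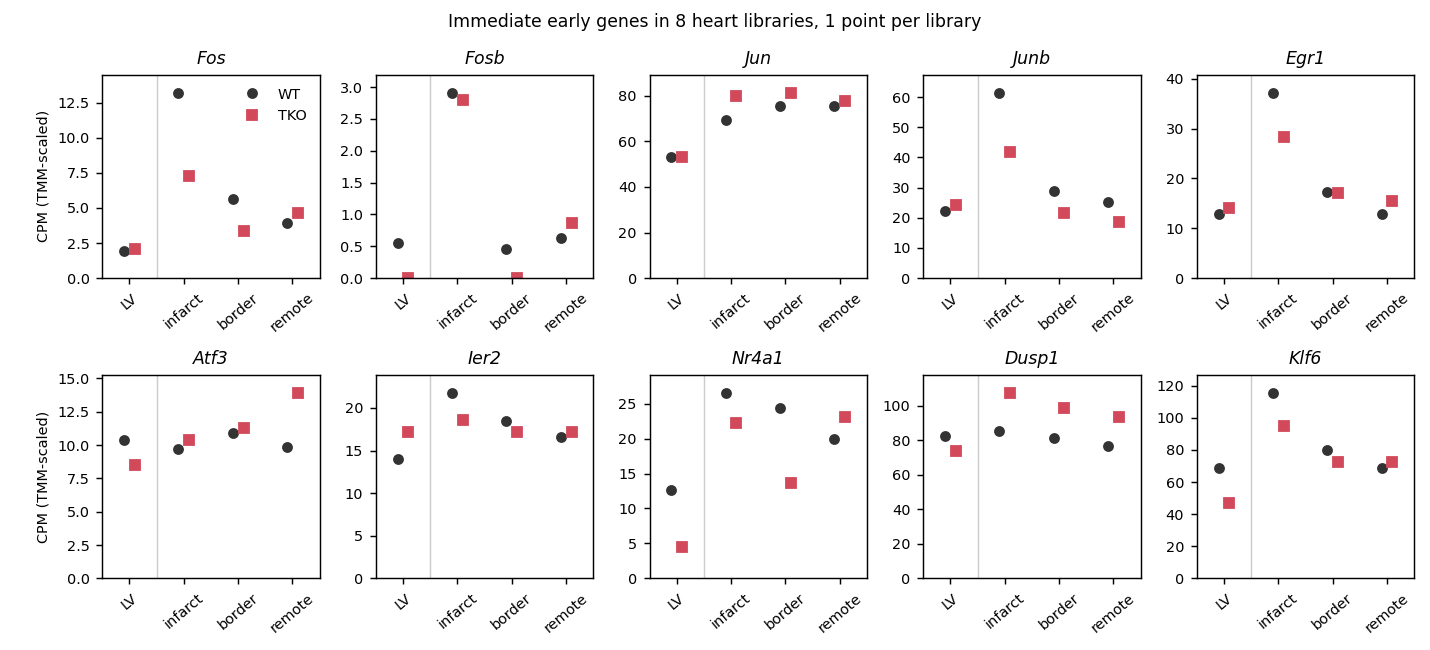
TMM-scaled CPM of each immediate early gene (vertical axis from 0) in the left ventricle (LV) and the 3 zones (horizontal axis), with 1 point per library, circles for WT and squares for TKO. For *Fos*, *Jun*, *Nr4a1*, and *Klf6* both left ventricle points lie below all 6 zone points, and for *Fosb* the TKO points of the left ventricle and border zone are at 0.

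Both left ventricle libraries lay below all 6 zone libraries for 4 members (*Fos*, *Jun*, *Nr4a1*, and *Klf6*), as they did for 12.7% of all genes tested. Against the 4 border and remote zone libraries alone, the same 4 members were below without overlap, beside 15.1% of all genes. No member had both left ventricle libraries above all 6 zone libraries, beside 13.1% of all genes. With libraries scaled to total counts, *Ier2* joined the 4 members, and the share of all genes rose to 19.6% against all zones and to 20.4% against border and remote zones.

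*Jun* (ENSMUSG00000052684, chr4:95049034-95052222, minus strand), the main AP-1 partner of the FOS proteins, had 53.06 CPM in the WT and 53.09 CPM in the TKO left ventricle. In the WT zones it had 69.4 CPM in the infarct, 75.5 in the border, and 75.5 in the remote zone, and in the TKO zones 79.9, 81.2, and 77.8 CPM in the same order. The 2 left ventricle libraries were nearly equal and all 6 zone libraries lay above them, in a band that was narrow on the TMM scale. With libraries scaled to total counts the infarct zones stood higher, at 107.1 CPM in WT and 100.5 CPM in TKO. The median of all genes for infarct zone over left ventricle was then 1.8 in WT and 1.47 in TKO. *Jun* in the border and remote zones had between 68.0 and 72.5 CPM on that scale. The fitted log2 difference between the left ventricle and the zones was -0.53 (SE 0.112, edgeR unadjusted p = 0.002, adjusted p = 0.487). Without the infarct zone pair it was -0.56 (SE 0.0713, edgeR adjusted p = 0.0874).

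*Fos* (ENSMUSG00000021250, chr12:85473890-85477273, plus strand), which has to pair with a JUN protein to bind DNA, had 1.90 CPM (52 counts) in the WT and 2.08 CPM (54 counts) in the TKO left ventricle. The WT infarct, border, and remote zones had 13.2, 5.65, and 3.91 CPM, and the TKO zones 7.27, 3.37, and 4.62 CPM. Every zone library lay above both left ventricle libraries, the WT infarct zone farthest. The fitted log2 difference was -1.62 (SE 0.566, edgeR unadjusted p = 0.0232, adjusted p = 0.487) with all zones and -1.14 (SE 0.270, edgeR adjusted p = 0.137) with the border and remote zones alone.

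*Nr4a1* (ENSMUSG00000023034, chr15:101254269-101274795, plus strand), the orphan nuclear receptor NUR77, had 12.6 CPM in the WT and 4.52 CPM in the TKO left ventricle. Its levels in the WT infarct, border, and remote zones were 26.5, 24.3, and 19.9 CPM, and those in the TKO zones 22.2, 13.6, and 23.1 CPM. The TKO left ventricle was the lowest of the 8 libraries and the WT left ventricle the next lowest, close to the TKO border zone. The fitted log2 difference was -1.44 (SE 0.345, edgeR unadjusted p = 0.00395, adjusted p = 0.487) and -1.35 (SE 0.344, edgeR adjusted p = 0.141) without the infarct zone pair. Within WT alone it was -0.90 and within TKO alone -2.14, so the size depended on the TKO left ventricle library.

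*Klf6* (ENSMUSG00000000078, chr13:5861482-5870394, plus strand), a zinc finger factor of the Krüppel-like family, had 68.5 CPM in the WT and 47.1 CPM in the TKO left ventricle. In the WT infarct, border, and remote zones it had 115.3, 80.1, and 69.0 CPM, and in the TKO zones 95.02, 72.6, and 72.5 CPM. The WT left ventricle lay just under the WT remote zone, a gap smaller than counting error (remote over left ventricle 1.01, interval 0.945 to 1.07), so its place below all zones rests on a small difference there. The fitted log2 difference was -0.56 (SE 0.240, edgeR unadjusted p = 0.0516, adjusted p = 0.487).

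**Figure D2:**
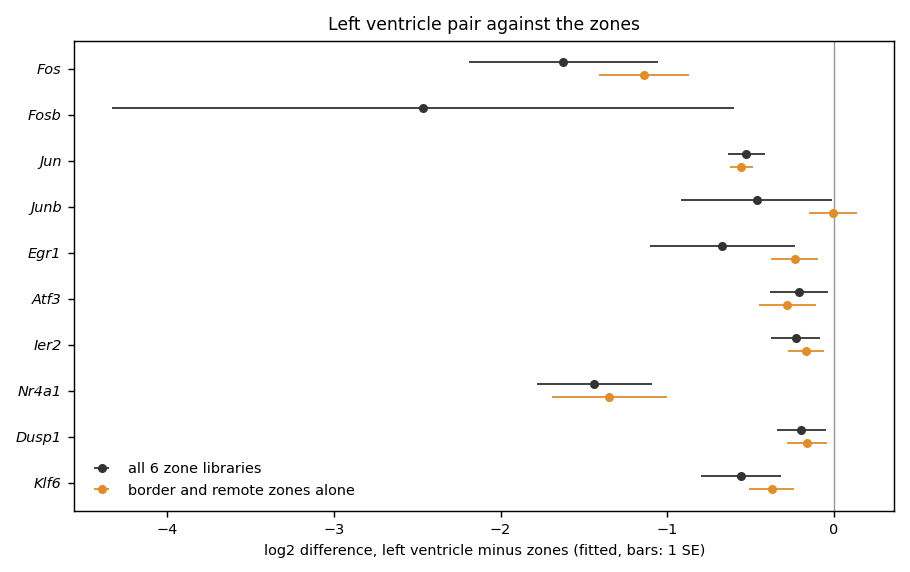
Fitted log2 difference of each member between the left ventricle and the zones (horizontal axis, negative where the left ventricle is lower, bars 1 SE), with all 6 zone libraries and with the border and remote zones alone. *Jun*, *Nr4a1*, and *Fos* stay below 0 in both fits, *Junb* moves to -0.01 without the infarct zones, and *Fosb* was not tested in the smaller fit because its mean fell below 1 CPM.

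*Junb* and *Egr1* were high in the infarct zone and near the left ventricle elsewhere. *Junb* (ENSMUSG00000052837, chr8:84974484-84978718, minus strand), an AP-1 subunit that can weaken JUN activity, had 22.3 CPM in the WT and 24.3 CPM in the TKO left ventricle, 61.3 and 41.9 CPM in the WT and TKO infarct zones, and between 18.7 and 28.7 CPM in the border and remote zones. Its left ventricle values fell inside the border and remote range, and its fitted difference of -0.47 (SE 0.451) went to -0.01 (SE 0.144) without the infarct zone pair. *Egr1* (ENSMUSG00000038418), a zinc finger factor and classical target of SRF, had 12.8 CPM in the WT and 13.98 CPM in the TKO left ventricle, 37.2 and 28.3 CPM in the WT and TKO infarct zones, and between 12.8 and 17.3 CPM in the border and remote zones. *Egr1* in the WT left ventricle and the WT remote zone differed by less than counting error (remote over left ventricle 1.001, interval 0.864 to 1.16).

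*Dusp1*, *Atf3*, and *Ier2* varied least between the left ventricle and the zones. *Dusp1* (ENSMUSG00000024190, chr17:26505590-26562128, minus strand) had 82.8 CPM in the WT and 73.9 CPM in the TKO left ventricle, between 76.8 and 85.4 CPM in the WT zones, and between 93.7 and 107.2 CPM in the TKO zones. *Atf3* (ENSMUSG00000026628, chr1:191170296-191218039, minus strand), a stress-induced factor of the ATF family, had 10.4 CPM in the WT and 8.53 CPM in the TKO left ventricle and between 9.69 and 13.9 CPM in the zones. *Ier2* (ENSMUSG00000053560, chr8:84661331-84662852, minus strand), a small nuclear protein, had 14.01 CPM in the WT and 17.2 CPM in the TKO left ventricle and between 16.6 and 21.7 CPM in the zones. In all of these the left ventricle range overlapped the zone range. For *Dusp1* and *Atf3* the direction rested on the TKO left ventricle library, since without it the log2 differences were 0.03 for both, and *Ier2* went to -0.04 without the WT left ventricle library.

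*Fosb* (ENSMUSG00000003545, chr7:19302696-19310051, minus strand), whose protein pairs with JUN proteins as FOS does, had few counts. There were 15 counts in the WT and 0 in the TKO left ventricle, 123 and 100 in the WT and TKO infarct zones, 14 and 0 in the border zones, and 19 and 26 in the remote zones. The infarct zones stood above the rest, and the fitted value of -2.47 (SE 1.87) depends on how the 0 counts are handled.

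Ratios of each zone to its own genotype's left ventricle rest on 2 libraries each and have no replicate check, and their 95% intervals are exact (Clopper-Pearson) and cover counting error only. The median ratio over the 10 members was 1.89 in the WT and 1.87 in the TKO infarct zone, beside 1.01 over all genes tested in both. These 2 medians include *Fosb*, which passed the filter only through the infarct zone libraries. In the border zone the median was 1.30 in WT and, over the 9 members other than *Fosb*, which had 0 counts in both TKO libraries, 1.34 in TKO. In the remote zone it was 1.13 in WT and 1.502 in TKO. The median zone level was above the left ventricle in all 6 comparisons, and the difference between genotypes in the remote zone was not tested.

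At least 2-fold higher in the WT infarct zone than in the WT left ventricle were 5 members (*Fos*, *Fosb*, *Junb*, *Egr1*, and *Nr4a1*), beside 18.8% of all genes. In the TKO infarct zone they were also 5, with *Klf6* in place of *Junb*, beside 16.2% of all genes. *Fosb* is in both counts, although it passed the filter only through the infarct zone libraries. Its place there follows from the filter. Only *Fos* passed 2-fold in the WT border zone (5.45% of genes) and in the WT remote zone (3.42%). In TKO the border zone had *Nr4a1* alone (4.42%) and the remote zone had *Fos*, *Fosb*, and *Nr4a1* (3.11%). No member was at least 2-fold lower in a zone than in the left ventricle of its genotype. The shares of all genes in that direction were 14.8% in the infarct, 1.84% in the border, and 2.09% in the remote zone of WT and 7.62%, 1.69%, and 1.53% in those of TKO.

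The highest ratio among members with counts in both libraries was that of *Fos* in the WT infarct zone, 6.95 (interval 5.23 to 9.42), and it was 3.49 (2.59 to 4.77) in the TKO infarct zone. *Nr4a1* had the widest gap between genotypes among members with counts in both left ventricle libraries, with 2.10 (1.86 to 2.37) in the WT and 4.92 (4.05 to 6.03) in the TKO infarct zone, and 1.58 (1.38 to 1.80) in the WT and 5.12 (4.20 to 6.28) in the TKO remote zone. Against the TKO left ventricle the *Nr4a1* ratios share the same low denominator of 117 counts. *Junb* in the remote zone lay on opposite sides of 1, at 1.13 (1.01 to 1.25) in WT and 0.772 (0.688 to 0.867) in TKO. *Dusp1* stood at 0.928 (0.875 to 0.984) in the WT and 1.27 (1.20 to 1.34) in the TKO remote zone.

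**Figure D3:**
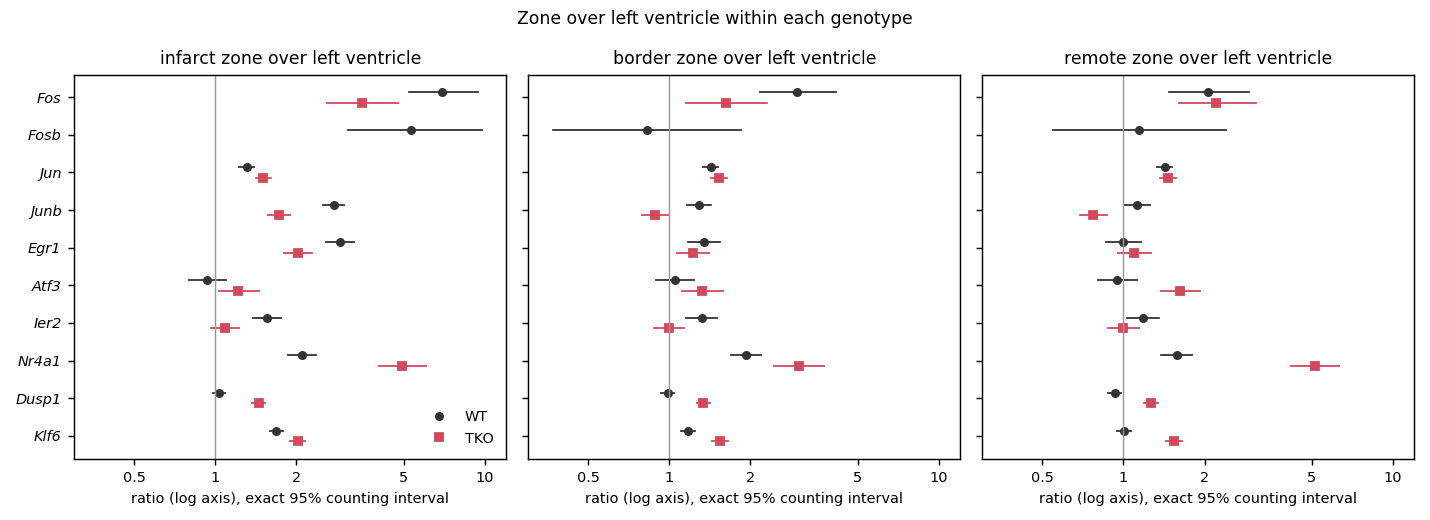
Ratio of each zone to its own genotype's left ventricle (horizontal log axis) for each member, circles for WT and squares for TKO, with exact 95% counting intervals as lines. *Fosb* in TKO is left out because its left ventricle count was 0, *Fos* reaches 6.95 in the WT infarct zone, and the *Nr4a1* squares lie to the right of the circles in all 3 zones.

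Levels of cell type markers moved with the same comparison. The 10 fibroblast markers were all lower in the left ventricle than in the zones in the fit (median log2 difference -1.39), with a summed level between 2048 and 2061 CPM in the left ventricle, between 9952 and 11530 CPM in the infarct zone, and between 2324 and 4245 CPM in the border and remote zones. The 10 macrophage markers were likewise all lower, at 371.8 to 428.7 CPM in the left ventricle, 1318 to 1764 CPM in the infarct zone, and 432.9 to 665.9 CPM in the border and remote zones. The summed level of the 10 members was between 244.6 and 278.9 CPM in the left ventricle, between 413.7 and 442.7 CPM in the infarct zone, and between 310.0 and 343.1 CPM in the border and remote zones.

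None of the fibroblast and macrophage markers was at 0 in any library, and their part in the values of the members was not tested. In such bulk samples, fewer cells of a type and less RNA per cell cannot be told apart. All 12 cardiomyocyte markers had higher fitted levels in the left ventricle (median log2 difference 0.55), whereas the 10 endothelial markers lay between 925.7 and 959.3 CPM there and between 792.8 and 932.6 CPM in the zones. Of the neutrophil markers 6 of 8 could be tested and all 6 were lower in the left ventricle, with sums of 5.02 to 6.06 CPM there, where 2 of the 8 were at 0 in WT, and 6.08 to 78.0 CPM in the zones. The other lists gave 7 of 7 lymphocyte, 5 of 5 red blood cell, and 7 of 9 smooth muscle and pericyte markers with a lower fitted level in the left ventricle. Their left ventricle sums, in that order, were 3.40 to 12.5, 2137 to 2755, and 1048 to 1061 CPM. These overlapped the border and remote zones, at 5.88 to 8.02, 2530 to 3150, and 1031 to 1090 CPM. Only the infarct zone sums lay above, at 17.5 to 32.0, 4846 to 5114, and 1099 to 1213 CPM. No gene of the marker lists passed the edgeR test after adjustment in this comparison, as no gene did. Infarction, dissection, and the levels of cell type markers differ together between the left ventricle and the zones, and their parts cannot be told apart.

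Among 45 further immediate early genes on a separate list, 43 were in the table and 41 could be tested. The left ventricle was lower for 33 and higher for 8 of them (median log2 difference -0.33). An unadjusted p below 0.05 was found for 8 of the 41, beside 1097 of all 12999 genes tested, and none passed edgeR after adjustment. Both left ventricle libraries lay below all zones for 10 of the 41 and above for 1, where the shares of all genes were 12.7% below and 13.1% above. The lowest p-values belonged to *Ier3*, an early gene linked to cell survival, with 29.1 and 20.4 CPM in the WT and TKO left ventricle and between 33.5 and 50.2 CPM in the zones, and to *Klf2*, a Krüppel-like factor, with 51.8 and 31.0 CPM in the left ventricle and between 65.0 and 78.9 CPM in the zones. For *Ier3* and *Klf2*, as for *Nr4a1* and *Klf6*, the TKO left ventricle was the lowest of the 8 libraries.

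Of 21 upstream regulators (SRF, CREB, their cofactors, and MAP kinases), 12 had lower and 9 had higher left ventricle levels, with a median log2 difference of -0.13 and no unadjusted p below 0.05. The 2 with the lowest p were *Mrtfa*, an SRF cofactor, at 4.23 and 4.56 CPM in the WT and TKO left ventricle and 4.82 to 13.7 CPM in the zones, and the kinase gene *Rps6ka3*, at 37.9 and 43.8 CPM in the left ventricle and 44.6 to 54.3 CPM in the zones. The 13 heat shock genes, chaperones that respond to heat and protein damage, went mostly the other way. Of these 10 were higher and 3 lower in the left ventricle (median log2 difference 0.43). Among the 13, 6 had an unadjusted p below 0.05, beside 1097 of all 12999 genes tested. *Hspa5*, the chaperone of the endoplasmic reticulum, had 690.3 and 789.4 CPM in the WT and TKO left ventricle and between 268.4 and 483.3 CPM in the zones. *Dnajb1*, a cochaperone of HSP70, had 16.8 and 16.3 CPM in the left ventricle and between 19.5 and 23.0 CPM in the zones.

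The genotype comparison asked whether members differed between TKO and WT across the 4 regions. With the regions as blocks, 18 of 12999 genes passed the edgeR test (0.138%) and none of the 10 members did. Here the regions stand in for replicates, so the p-values measure the spread between these libraries and not between mice. At an unadjusted p below 0.05 there were 2109 of the 12999 genes. *Junb* was the only member among them (log2 difference TKO minus WT -0.32, SE 0.119, edgeR unadjusted p = 0.0329, adjusted p = 0.276). DESeq2 called 342 genes (2.63%) and no member. The median over the members was -0.12 on the log2 scale, with 7 lower and 3 higher in TKO. That split was 9 to 1 with libraries scaled to total counts and 6 to 4 with DESeq2 size factors. The median of all genes was -0.107 with total counts and 0.007 with DESeq2 size factors. No member was lower in TKO in all 4 regions (13.5% of all genes were), and *Jun* was higher in all 4 (13.2% of all genes were), by ratios of 1.001 in the left ventricle, 1.15 in the infarct, 1.07 in the border, and 1.03 in the remote zone. The left ventricle interval of *Jun* (0.929 to 1.08) held 1, and with total counts its ratio was 0.999 in the left ventricle and 0.939 (0.891 to 0.989) in the infarct zone. The median ratios of all genes with total counts were 1.004 and 0.8195 in the same order.

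**Figure D4:**
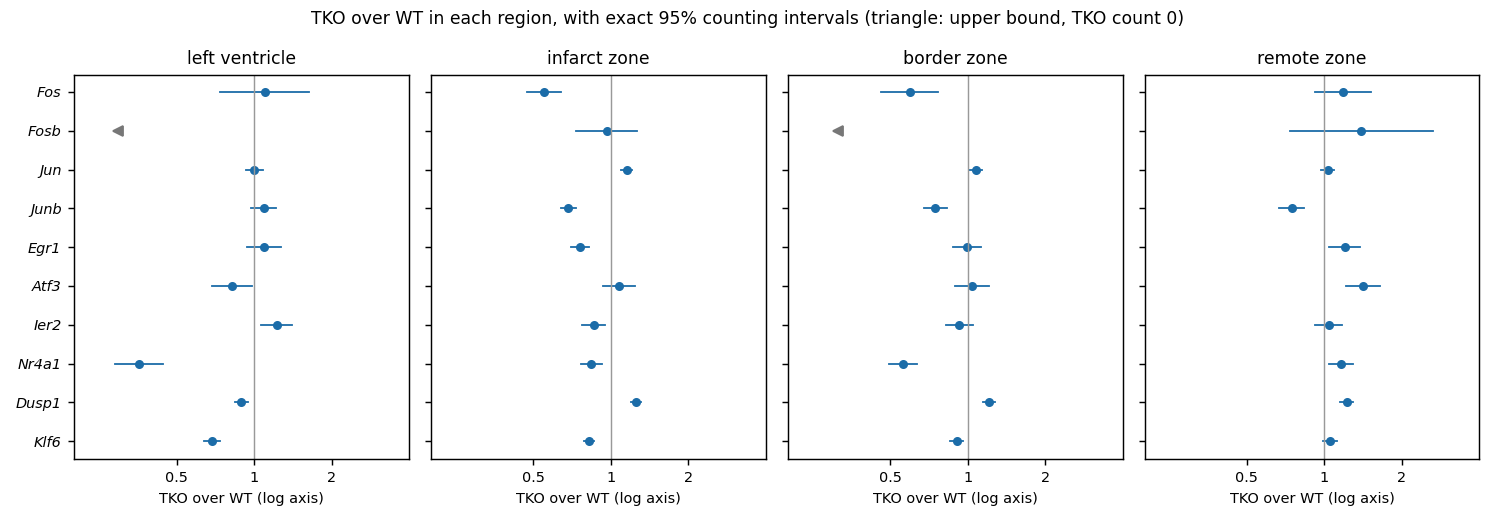
TKO over WT ratio of each member in the left ventricle and the 3 zones (horizontal log axes), with exact 95% counting intervals as lines and a triangle at the upper bound where the TKO count was 0 (*Fosb* in the left ventricle and border zone). *Nr4a1* lies farthest to the left among members with counts in both left ventricle libraries, at 0.358, and *Dusp1* lies below 1 in the left ventricle and above 1 in each zone.

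By region, the 10 members had a median ratio of TKO to WT of 0.947 in the left ventricle, 0.849 in the infarct, 0.917 in the border, and 1.17 in the remote zone, where 9 of 10 were above 1. In the left ventricle 2 members were at least 2-fold lower in TKO (*Nr4a1* and *Fosb*), beside 3.62% of all genes. *Nr4a1* had 117 counts against 346, a ratio of 0.358 (interval 0.288 to 0.443). *Fosb* had 0 counts against 15, which is 4.73-fold lower with 0 counts set to 3 in the TKO library. The upper limit of its interval was a ratio of 0.295. *Klf6* followed at 0.687 (0.639 to 0.739), whereas *Fos*, *Jun*, *Junb*, and *Egr1* lay between 1.001 and 1.099 with intervals that held 1. These 4 thus showed no difference beyond counting error. With 1 library per genotype, a difference between mice could not be tested. *Ier2* was higher in TKO at 1.23 (1.07 to 1.41), and *Atf3* and *Dusp1* were lower at 0.823 (0.688 to 0.985) and 0.893 (0.840 to 0.949).

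In the infarct zone *Fos* was lower in TKO at 0.551 (interval 0.474 to 0.640), as were *Junb* at 0.683 (0.641 to 0.729) and *Egr1* at 0.761 (0.703 to 0.824). *Fosb*, the other early FOS gene, had a ratio of 0.962 there (0.732 to 1.26). In the border zone *Nr4a1* had 0.561 (0.496 to 0.634) and *Fos* 0.597 (0.462 to 0.768). *Fosb* had 0 counts against 14 there, 4.49-fold lower by the same rule (upper limit of the interval 0.313). In the remote zone *Atf3* was higher in TKO at 1.41 (1.21 to 1.64), *Egr1* at 1.20 (1.05 to 1.38), and *Nr4a1* at 1.16 (1.04 to 1.30), and *Junb* was lower at 0.747 (0.669 to 0.834). Only *Junb* was lower in TKO in all 3 zones with intervals that excluded 1, and its left ventricle ratio was 1.09 (0.971 to 1.22).

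Fibroblast and macrophage markers were also lower in the TKO than in the WT zones. Their sums were 9952 and 1318 CPM in the TKO and 11530 and 1764 CPM in the WT infarct zone, 2898 and 501.8 against 4245 and 665.9 CPM in the border zone, and 2324 and 432.9 against 2952 and 617.4 CPM in the remote zone. Neutrophil markers summed to 40.4 CPM in TKO and 78.0 CPM in WT in the infarct, 12.8 and 45.9 CPM in the border, and 6.08 and 15.8 CPM in the remote zone. Cardiomyocyte markers were higher in TKO, at 34050 and 16830 CPM in the infarct, 66360 and 54970 CPM in the border, and 67630 and 60720 CPM in the remote zone. *Junb* was lower in TKO in all of these zones, but *Fos* only in the infarct and border zones. In the remote zone the *Fos* ratio of TKO to WT was 1.18 (interval 0.9175 to 1.52). The part of these cell types in the *Fos* and *Junb* values was not tested.

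A departure of the left ventricle from the zones in the effect of genotype was tested with a genotype by left ventricle term. Of 12999 genes 84 passed the edgeR test (0.646%) and none of the 10 members did, while 2179 genes had an unadjusted p below 0.05, among them *Junb*, *Dusp1*, and *Nr4a1*. DESeq2 called 280 genes (2.15%) and no member. *Junb* departed by 0.59 on the log2 scale (SE 0.134, edgeR unadjusted p = 0.00554, adjusted p = 0.133), being higher in the TKO left ventricle relative to the zones. *Dusp1* departed by -0.46 (SE 0.140, edgeR unadjusted p = 0.0181, adjusted p = 0.207) and *Nr4a1* by -1.20 (SE 0.433, edgeR unadjusted p = 0.0348, adjusted p = 0.265). Leaving out either infarct zone library takes the infarct pair out of this contrast, because the other is then fitted by its own region term. Both fits thus set the genotype difference of the left ventricle against that of the border and remote zones alone. They leave 1 residual degree of freedom and are not separate checks. Over all alternatives the adjusted p lay between 0.0351 and 0.492 for *Junb*, 0.0331 and 0.291 for *Nr4a1*, 0.0295 and 0.496 for *Dusp1*, and 0.0255 and 0.762 for *Klf6*. This departure rests on 1 TKO and 1 WT left ventricle library.

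Calls in this test depend on the border zone pair. Leaving out either of its libraries takes the pair out of the contrast, and few or no genes then passed. A gene of the same family as *Nr4a1* passed this test, as did genes of another list. *Nr4a3*, the only one of the 41 further immediate early genes to do so and named here after its values were seen, had 11.4 CPM in the WT and 1.78 CPM in the TKO left ventricle, between 7.03 and 9.57 CPM in the WT zones, and between 4.85 and 6.07 CPM in the TKO zones (log2 departure -2.03, SE 0.250, edgeR adjusted p = 0.0455). Of 15 genes on a glucocorticoid response list 4 passed, with a median log2 departure of -1.22 over the list, and these were also named after their values were seen. *Fkbp5*, a cochaperone of the glucocorticoid receptor, stood at 0.183 in the left ventricle as TKO over WT and between 0.967 and 1.47 in the zones (edgeR adjusted p = 0.0357). *Ddit4*, an inhibitor of mTOR, had 0.294 in the left ventricle and between 1.31 and 1.38 in the zones (edgeR adjusted p = 0.0157).

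*Per1*, a clock gene that glucocorticoids also induce, had 68.5 CPM in the WT and 24.6 CPM in the TKO left ventricle and between 70.1 and 107.4 CPM in the zones (edgeR adjusted p for the departure = 0.0319). *Tsc22d3*, which encodes GILZ, had 0.408 in the left ventricle and between 1.11 and 1.29 in the zones as TKO over WT ratios (edgeR adjusted p = 0.0454). The TKO left ventricle was thus the lowest library for *Per1*, *Fkbp5*, *Ddit4*, *Tsc22d3*, and *Nr4a1*, and *Nr4a1* was the member with the lowest ratio there of those with counts in both libraries. In the comparison of the left ventricle with the zones, 10 of the 15 genes were lower and 5 higher (median -0.33). *Pdk4*, a kinase that restrains glucose oxidation and had the lowest p of that list, was higher in the left ventricle, at 1312 CPM in WT and 420.1 CPM in TKO beside 60.7 to 161.7 CPM in the zones. The time of day and feeding state at collection are not given in the sources used here.

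The members did not share a single pattern over the 8 libraries. The Pearson correlation of each member with the mean centred log2 CPM of the other 9, given as a description over 8 libraries that share 4 regions, was highest for *Klf6* (0.942), *Fos* (0.898), and *Nr4a1* (0.812) and lowest for *Atf3* (0.197), *Dusp1* (0.437), and *Jun* (0.507). The mean profile of all 10 was highest in the WT (0.77) and TKO (0.57) infarct zones and lowest in the TKO left ventricle (-0.82), with -0.31 in the WT left ventricle and -0.37 in the TKO border zone, where *Fosb* was at 0 counts.

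Among 3811 other genes that varied enough (SD of at least 0.5 on the log2 scale), those most like this profile were *Stk32b* (r = 0.986), *Negr1* (0.984), *Gli1* (0.983), *Pisd-ps1* (0.982), *Pxdc1* (0.980), *Eya2* (0.979), *Galnt12* (0.974), *Naip2* (0.968), *Prg4* (0.968), and *Cep250* (0.967). *Pisd-ps1* and *Naip2* have close copies in the genome between which reads may be split. Each of the 10 had its highest mean in the infarct zone, which follows from their choice by likeness to a profile highest there. *Prg4* (lubricin), for example, had 59.5 CPM in the infarct zone, 25.9 in the border and remote zones, and 13.9 in the left ventricle. When *Fosb* was left out of the profile, a choice made after seeing the data, only 1 of the 10 names was shared (*Galnt12*), so the list of nearest genes rests largely on a member with few counts.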

How the data were processed

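RNA from the left ventricle and the infarct, border, and remote zones of WT and TKO mouse hearts was sequenced, with 1 library for each combination of genotype and region. The authors trimmed reads with Trim Galore (0.6.5), quantified transcripts with kallisto (0.46) against mm10, and collapsed transcripts into genes with tximport. Estimated counts were deposited as whole numbers and not normalized. The filter required a mean CPM of 1 or more (12999 of 16994 genes). TMM factors and quasi-likelihood tests were computed with edgeR 4.0.16 in R 4.3.3, with Benjamini-Hochberg adjustment over all genes tested and a threshold of 0.05. The left ventricle was compared with the zones with genotype as covariate, TKO with WT with region as block, and the departure of the left ventricle with region, genotype, and their left ventricle term. DESeq2 1.42.0 (Wald test), other scalings and filters, and fits without each library were alternatives. A count of 0 in a ratio was set to 3 counts to give a fold value, which leaves out the counting error of the other library. Tests were tried on simulated data. Positions and exon lengths are from GENCODE M21 (GRCm38), and figures were drawn with matplotlib 3.10.9.

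The members and lists were chosen with earlier results of these data known. Named genes were the members, *Tigar*, the 2 genes of each related list with the lowest p for the left ventricle against the zones (none had passed the threshold), and the 10 genes with the highest correlation to the members' mean profile.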

Additional observations from a re-analysis of the deposited data

Results flagged for a closer look

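*Dusp1*, which encodes a phosphatase of MAP kinases, stood out because its genotype difference had opposite signs in different regions. Its TKO over WT ratio was 0.893 in the left ventricle (counting interval 0.840 to 0.949), whereas it was 1.25 in the infarct (1.20 to 1.31), 1.21 in the border (1.15 to 1.28), and 1.22 in the remote zone (1.15 to 1.29). All 4 intervals excluded 1, and each ratio rests on 1 library per genotype. Tested as a departure of the left ventricle from the zones, the log2 difference was -0.46 and did not pass the edgeR test (adjusted p = 0.207). Its adjusted p was 0.0296 without the infarct zone pair and ranged from 0.0295 to 0.496 over all alternatives. With libraries scaled to total counts the infarct zone ratio was 1.02, beside a median of 0.8195 over all genes.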

How the results depend on the processing

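All 10 members (*Fosb* included) had a lower fitted level in the left ventricle than in the zones under TMM, total counts, DESeq2 size factors, and without mitochondrial DNA–encoded genes. *Fosb* passed the filter only through the infarct zone libraries, so its direction follows from that filter. Within WT alone, *Atf3* and *Dusp1* stood at 0.04 and 0.03. Total counts moved the median of all genes for the left ventricle against the zones from -0.01 to -0.32 on the log2 scale and that of the members from -0.54 to -0.90. Under total counts the median of the members for TKO over WT was 0.692 in the infarct zone, beside 0.8195 over all genes. Infarct zone over left ventricle was 3.36 in WT and 2.72 in TKO, beside 1.8 and 1.47 over all genes. Relative to all genes these medians were 0.845, 1.87, and 1.85, the same as under TMM.

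For the left ventricle against the zones, called genes numbered 151 with DESeq2 (2 of them members), 3 without the infarct zone pair, and 0 to 7 when each library was left out. For TKO against WT they numbered 56 with total counts, 342 with DESeq2, 80 in the zones only, and 3 to 72 when each library was left out (72 without the WT and 70 without the TKO left ventricle). For the departure of the left ventricle they numbered 275 with total counts, 140 with at least 10 counts in every library, 280 with DESeq2, 1305 without the infarct zone pair (2 members), and 0 to 1462 when each library was left out (0 to 4 members), the lowest without the TKO border zone and the highest without the WT infarct zone. In these 3 comparisons the cause was not tested. Of the other values under alternatives, 437 kept their side of the threshold and 12 passed it newly. No member had been called at the outset, and 20 uncalled values in 5 members (*Jun*, *Egr1*, *Atf3*, *Ier2*, and *Dusp1*) changed sign. The departure could not be fitted without either left ventricle library. No paired analysis was possible because the labels number no replicates, beyond the blocks by region that TKO against WT already had.

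Depth limits *Fosb*, with 0 counts in 2 libraries, and *Fos*, with 52 and 54 counts in the left ventricle.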
